A study of Mus musculus with 12 samples.

Results

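The genes described here encode the proteins of the mitochondrial ribosome. They were chosen by name and biotype, as every gene called Mrpl or Mrps followed by a number, with or without the letter a, b or c, and annotated as protein coding. This gave 78 of the 41709 genes in the deposited tables. The measurements came from RNA-seq of MHCII-positive dendritic cells grown from mouse bone marrow for 10 days (BMDCs). Cells of CD18fl/fl mice, in which exon 3 of Itgb2 (the gene of CD18, the common chain of the β2 integrins) is flanked by loxP sites, were compared with cells of CD18CD11c cKO mice, which carry the same homozygous floxed gene and in addition a Cre recombinase driven by the CD11c promoter. All control mice thus carried the floxed alleles too, and no mouse without them was part of the series. Each genotype was left unstimulated or was given 100 ng/mL LPS for 24 h, and 3 libraries were made in each of the 4 groups. The labels give no age of the mice, and they do not say whether the 3 libraries of a group came from separate animals or cultures, so p-values measure the spread between these samples only.

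The mitochondrial ribosome translates the few proteins that mitochondrial DNA encodes, all of them subunits of the respiratory chain and of the ATP synthase. Its proteins are all encoded in the nucleus, made in the cytosol and imported, and they assemble on ribosomal RNA made inside the organelle into a small subunit, which holds the messenger RNA, and a large subunit, which joins the amino acids. Part of these proteins have homologs in bacterial ribosomes, and the others exist only in mitochondria. In dendritic cells and macrophages, LPS is known to shift metabolism from respiration towards glycolysis.

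The 12 libraries held between 29689149 and 34037178 reads assigned to genes, and 3 reads corresponded to between 0.0881 and 0.101 CPM (the reads of a gene scaled to a common library size). Itgb2, the floxed gene, stood at 382, 420.2 and 379 CPM in unstimulated CD18fl/fl libraries and at 120.5, 163 and 189 CPM in unstimulated CD18CD11c cKO libraries, so its transcript was lower but present in the latter. The summed level of 8 dendritic cell markers lay between 13261 and 33939 CPM in all libraries, and none of the 8 was at or under 3 reads in every library of a group. The third LPS library of each genotype stood apart from the other LPS libraries, and libraries with the same replicate number deviated together, as did replicates 1 and 2, in most comparisons to a lesser degree. Each fit is therefore given without a term for the replicate number, since the study's methods name none, and with that term (replicate block).

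Of the 78 proteins, 51 belong to the large subunit and 26 to the small subunit. Mrps30 and Mrps18a carry the name of the small subunit and sit in the large one. The remaining gene, Mrps36, encodes a component of the α-ketoglutarate dehydrogenase complex and no ribosomal protein, although its name met the rule. By origin, 45 of the proteins have bacterial homologs and 32 are specific to mitochondria. The genes lay on 17 chromosomes, with 11 of them on chromosome 11. The length of their exons ran from 491 bases in Mrpl52 to 7605 bases in Mrpl17, with a median of 1502.5 bases. In 25 of them another protein-coding gene overlapped the locus, and the library kit named in the study's methods does not mark the strand, so that reads of overlapping genes cannot be told apart by strand.

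All 78 genes passed the filter on low counts in each comparison. Together they took between 94113 and 158417 reads, or 0.295 to 0.508% of the reads of a library, and the lowest count of any of them in any library was 48 reads. Per kilobase of exon (RPKM, mean of the 12 libraries), the levels spanned a 159-fold range, with a median of 22.7, a lower quartile of 13.7 and an upper quartile of 52.2. The highest levels were those of Mrpl14 (427 RPKM), Mrps21 (248 RPKM) and Mrpl53 (140 RPKM). The lowest were those of Mrpl35 (2.68 RPKM), Mrpl47 (2.85 RPKM) and Mrps5 (3.18 RPKM). Genes of the large subunit had a median level of 24.9 RPKM and those of the small subunit one of 17.8 RPKM. For proteins with bacterial homologs and those specific to mitochondria the medians were 23.1 and 18.5 RPKM. For 6 genes less than 95% of the reads were unique to the gene: Mrpl24, Mrps25, Mrpl43, Mrps34, Mrps6 and Mrpl53. In Mrps6 the unique share was 71.5%, with Slc5a3 and Gm49711 at the same locus. In Mrpl53 it was 0.0%, since all of its reads also matched Gm42688, so values of Mrpl53 are those of reads that cannot be assigned between both genes.

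Promoter sequences from RefSeq (build GRCm38.p6, 250 bases before to 50 bases after the start) were at hand for 69 of the 78 genes. Mrpl15, Mrps28, Mrpl19, Mrps35, Mrpl4, Mrpl54, Mrpl38, Mrpl13 and Mrps34 had no entry. The promoters of nuclear genes for mitochondrial proteins are known for sites of NRF1, of ETS factors such as GABP, and of YY1, and these were searched on both strands, together with the E-box bound by MYC, as exact matches. The YY1 letters AANATGGC stood in 21 of the 69 promoters (30.4%), against 10.2% of 9769 promoters of protein-coding genes expressed in these cells and 6.96% of all 27025 genes in the table. The ETS letters CCGGAAG stood in 26 (37.7%), against 20.6% and 9.93%. The NRF1 letters, GCGC and TGCGC with any 1 base between them, stood in 13 (18.8%), against 11.5% and 5.19%. The E-box CACGTG stood in 5 (7.25%), against 11.7% and 8.09%. In no member promoter did matches to different motifs overlap, and 20 of the 69 held none of the 4. Promoters of 5 genes are shown, with each match in capitals. Mrpl53 is shown as the gene called after LPS in both genotypes without the replicate block, Mrpl50, Mrpl57 and Mrpl58 for genotype differences in both states with promoters of different content, and Mrpl44 because its start is shared with the gene Wdfy1.
Mrpl53: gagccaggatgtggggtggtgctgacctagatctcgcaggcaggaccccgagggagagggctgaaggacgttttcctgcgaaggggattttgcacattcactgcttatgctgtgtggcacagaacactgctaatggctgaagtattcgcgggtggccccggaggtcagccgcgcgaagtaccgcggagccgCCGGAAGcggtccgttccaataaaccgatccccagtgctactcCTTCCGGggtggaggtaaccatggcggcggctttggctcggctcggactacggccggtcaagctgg
Mrpl50: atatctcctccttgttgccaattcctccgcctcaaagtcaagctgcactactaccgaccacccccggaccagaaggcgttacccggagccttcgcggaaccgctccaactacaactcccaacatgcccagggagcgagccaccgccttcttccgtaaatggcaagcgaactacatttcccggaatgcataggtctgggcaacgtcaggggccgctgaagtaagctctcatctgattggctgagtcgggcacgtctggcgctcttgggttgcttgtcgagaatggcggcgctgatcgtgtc
Mrpl57: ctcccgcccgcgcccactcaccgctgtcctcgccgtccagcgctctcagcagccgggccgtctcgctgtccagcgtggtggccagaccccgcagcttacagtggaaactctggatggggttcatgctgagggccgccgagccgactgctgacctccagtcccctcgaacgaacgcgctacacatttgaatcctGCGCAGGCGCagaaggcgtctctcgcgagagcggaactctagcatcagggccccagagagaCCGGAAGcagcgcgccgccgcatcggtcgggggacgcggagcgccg
Mrpl58: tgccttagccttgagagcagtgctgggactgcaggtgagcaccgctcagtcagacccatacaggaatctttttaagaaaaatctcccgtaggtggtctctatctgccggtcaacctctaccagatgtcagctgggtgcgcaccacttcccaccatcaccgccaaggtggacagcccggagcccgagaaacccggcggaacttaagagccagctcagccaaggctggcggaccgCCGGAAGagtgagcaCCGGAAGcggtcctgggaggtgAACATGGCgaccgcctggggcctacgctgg
Mrpl44: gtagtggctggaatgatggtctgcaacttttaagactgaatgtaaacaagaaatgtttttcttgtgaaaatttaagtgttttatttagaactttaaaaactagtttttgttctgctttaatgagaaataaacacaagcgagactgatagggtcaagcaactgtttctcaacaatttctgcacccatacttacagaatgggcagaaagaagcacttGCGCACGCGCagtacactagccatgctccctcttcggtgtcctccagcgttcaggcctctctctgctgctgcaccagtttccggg
In this build they lie at chr6:83108858-83109157, plus strand (Mrpl53), chr4:49521034-49521333, minus strand (Mrpl50), chr14:57825989-57826288, plus strand (Mrpl57), chr11:115403502-115403801, plus strand (Mrpl58) and chr1:79775768-79776067, plus strand (Mrpl44). The capitals mark 2 ETS matches in Mrpl53, an NRF1 and an ETS match in Mrpl57, 2 ETS matches followed by a YY1 match in Mrpl58 and an NRF1 match in Mrpl44, while Mrpl50 holds no match. The genotype difference of unstimulated cells had a median of 0.86 on the log2 scale over the 26 genes with the ETS letters and of 0.62 over the 43 without them. For YY1 these medians were 0.74 (21 genes) and 0.67 (48 genes), and for NRF1 0.58 (13 genes) and 0.68 (56 genes). For the E-box they were 0.52 (5 genes) and 0.68 (64 genes). A match is a description of the letters only.

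To see whether mitoribosomal transcripts differed between the genotypes as a group, their CPM values were summed. The sums of all 78 genes were 2693, 2360 and 2942 CPM in unstimulated CD18fl/fl libraries and 4627, 4065 and 4211 CPM in unstimulated CD18CD11c cKO libraries. After LPS they were 3712, 4092 and 2555 CPM in CD18fl/fl libraries and 6419, 6461 and 4161 CPM in CD18CD11c cKO libraries. In both states every CD18CD11c cKO library was above every CD18fl/fl library, and within each LPS group the library of replicate 3 was the lowest. The ratio of large-subunit to small-subunit transcripts lay between 2.34 and 2.60 in the unstimulated libraries of both genotypes. After LPS it was 2.92, 3.08 and 2.35 in CD18fl/fl and 3.16, 3.07 and 2.41 in CD18CD11c cKO libraries, so that replicates 1 and 2 stood above the unstimulated range and replicate 3 within it. Abundant genes weigh most in such sums, and Mrpl14 of the large subunit, the most abundant member, was higher after LPS (values below). The ratio may thus not describe most genes of a subunit.

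**Figure D1:**
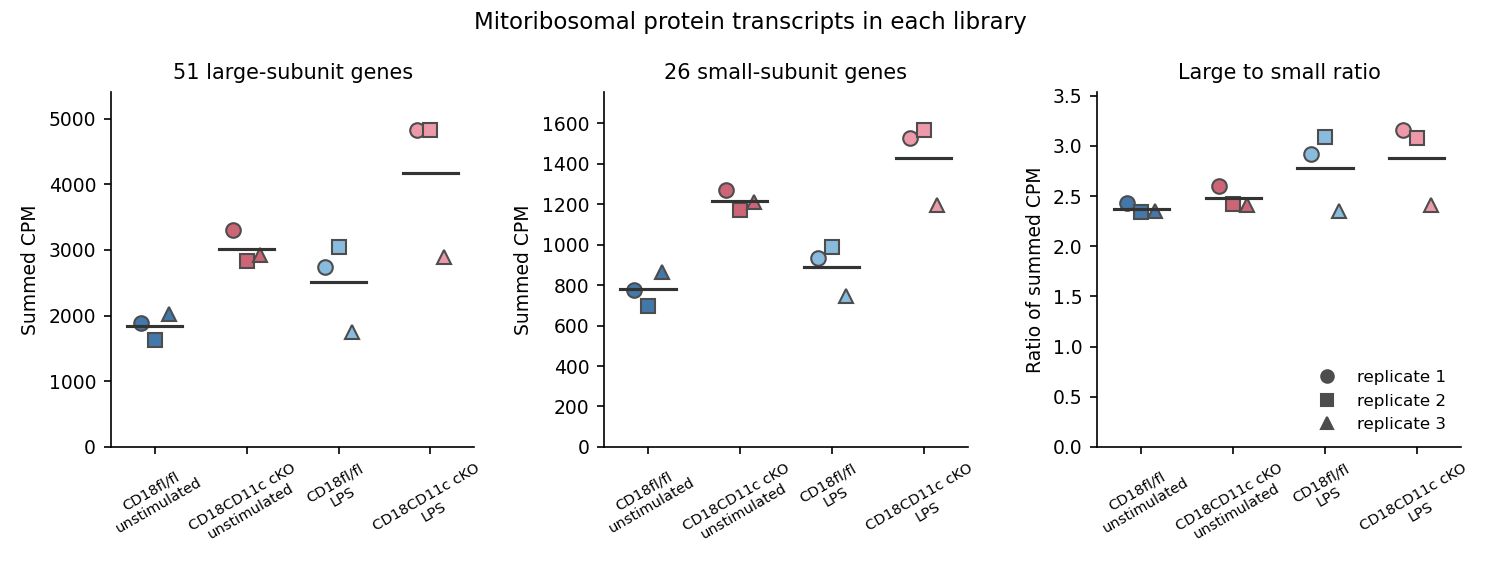
Summed CPM of the 51 large-subunit genes (left) and the 26 small-subunit genes (middle) and the ratio of both sums (right) in each library, with lines at the group means (n = 3 libraries) and a symbol for each replicate number. In the small-subunit sums the CD18CD11c cKO libraries sit above the CD18fl/fl libraries of the same state. In the large-subunit sums they do so without stimulation, whereas the third CD18CD11c cKO library with LPS (2892 CPM) lies below the second CD18fl/fl library with LPS (3050 CPM), and the ratios of the genotypes overlap. The third LPS library of each genotype is the lowest of its group in every panel.

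In unstimulated cells, 72 of the 78 genes had a higher mean in CD18CD11c cKO than in CD18fl/fl libraries. Their median log2 difference was 0.68, against −0.05 over the 12876 genes tested, and the single genes ranged from −0.62 to 1.44. In the edgeR fit without the replicate block, 0 of the 78 genes passed an adjusted p of 0.05, as did 0.0% of all genes tested. At an unadjusted p under 0.05, 40 were higher and 1 was lower, against 10.8% and 5.93% of all genes, and DESeq2 called 22 higher and 0 lower at its adjusted p, against 2.61% and 0.25%. With the replicate block edgeR called 50 of the 78 higher and 0 lower, against 12.1% and 8.16% of all genes. In 59 of the 78 genes (75.6%) the CD18CD11c cKO library was the higher one in all 3 same-numbered pairs, against 24.0% of all genes tested. The values of the groups did not overlap for 43 genes that were higher and 2 that were lower in CD18CD11c cKO, against 11.7% and 13.1% of all genes.

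The 50 genes held 33 of the 51 large-subunit and 16 of the 26 small-subunit genes, with medians of 0.73 and 0.61 in the fit with the block, and Mrps36. They held 31 of the 45 genes with bacterial homologs and 18 of the 32 specific to mitochondria. Members of both subunits and of both origins were thus among them. Of the members, the smallest p-value of the fit without the block was that of Mrpl50, a mitochondria-specific protein of the large subunit (ENSMUSG00000044018, chromosome 4, 49512596 to 49521093, minus strand of GRCm39, exons of 2114 bases). Mrpl50 stood at 26.3, 26.9 and 27.1 CPM in CD18fl/fl and at 56.7, 60.7 and 58.6 CPM in CD18CD11c cKO libraries. The ranges of the groups were narrow and lay far apart, with a log2 difference of 1.19 ± 0.16 (SE) and an adjusted p of 0.086 without and 0.0032 with the block.

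Mrpl48, another mitochondria-specific protein of the large subunit (chromosome 7, 100194958 to 100257508, minus strand), stood at 48.5, 41.2 and 51 CPM in CD18fl/fl and at 118, 109 and 104 CPM in CD18CD11c cKO libraries. Its log2 difference was 1.29 ± 0.18, with an adjusted p of 0.086 without and 0.0032 with the block. Mrpl33, a large-subunit protein with a bacterial homolog (chromosome 5, 31754279 to 31821728, plus strand), stood at 51.1, 39.0 and 46.1 CPM against 107, 93.6 and 110.2 CPM. In each of these genes the lowest CD18CD11c cKO library was above the highest CD18fl/fl library. Mrps21, the most abundant small-subunit transcript, stood at 83.8, 70.6 and 74.0 CPM against 182, 159 and 149.8 CPM, a log2 difference of 1.16 ± 0.19 with an adjusted p of 0.0032 with the block. Mrps17, which binds ribosomal RNA in the small subunit and has exons of 6011 bases, stood at 33.8, 31.2 and 37.9 CPM against 64.6, 62.0 and 74.3 CPM, with 1.02 ± 0.18 and an adjusted p of 0.0040 with the block.

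Members with known additional roles were among the 50. Mrpl12, the stalk protein of the large subunit, which also binds the mitochondrial RNA polymerase, stood at 54.1, 60.1 and 75.6 CPM against 124, 109.7 and 151 CPM, with a log2 difference of 1.08 ± 0.22 and an adjusted p of 0.0038 with the block. Mrpl58, a peptidyl-tRNA hydrolase that rescues stalled ribosomes, stood at 28.7, 23.3 and 37.4 CPM against 52.0, 50.6 and 47.4 CPM, with 0.81 ± 0.21 and an adjusted p of 0.018. Of the 3 related genes Mrps18a, Mrps18b and Mrps18c, Mrps18a (log2 difference 0.86 with the block) and Mrps18c (0.97) passed the test with adjusted p-values of 0.0072 and 0.0066. Mrps18b, at 0.20, did not (adjusted p of 0.38). Mrps30, a mitochondria-specific protein of the large subunit, did not either, at 30.2, 19.2 and 25.9 CPM against 30.6, 32.9 and 21.9 CPM, with overlapping groups and an adjusted p of 0.45.

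**Figure D2:**
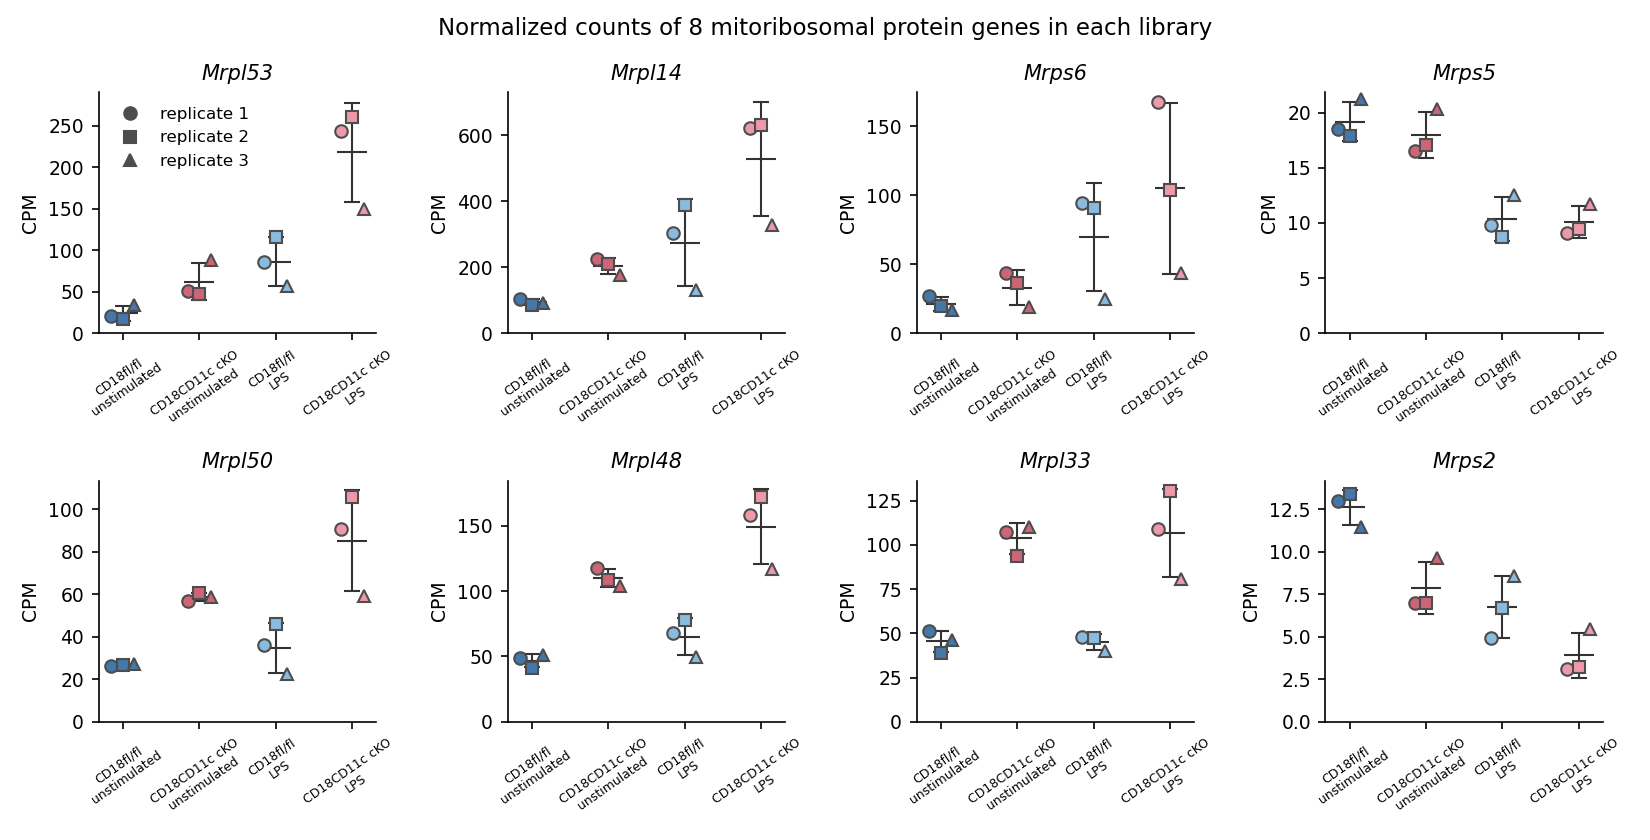
CPM of 8 genes in each library (points, with a symbol for each replicate number) and the mean ± SD of each group (n = 3 libraries). Mrpl50, Mrpl48 and Mrpl33 separate the genotypes in both states, Mrpl53, Mrpl14 and Mrps6 have their highest values after LPS, and Mrps5 and Mrps2 have their lowest values after LPS.

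In LPS-treated cells the difference had a similar size. Of the 78 genes 67 had a higher mean in CD18CD11c cKO libraries, and the median log2 difference was 0.57, against −0.11 over the 12441 genes tested. Without the block edgeR called 0 of the 78 genes, as it did 0.0% of all genes. At an unadjusted p under 0.05, 25 were higher and 0 lower, against 6.19% and 3.55% of all genes, and DESeq2 called 5 higher and 0 lower, against 0.74% and 0.0472%. With the block edgeR called 33 higher and 0 lower, against 6.98% and 3.16% of all genes. In 57 genes (73.1%) CD18CD11c cKO was higher in all 3 same-numbered pairs, against 23.1% of all genes tested, and 32 genes were higher and 1 lower without overlap, against 9.51% and 8.09%. The 2 genotype comparisons use different libraries with the same replicate numbers. Same-numbered libraries of the 2 states deviated together within each genotype (correlations of 0.262 to 0.610), so the 2 comparisons cannot be taken as independent. All 33 genes called in LPS-treated cells were among the 50 called in unstimulated cells, which is 66% of the 50. Over all genes 771 were shared, which is 88.7% of the 869 called higher after LPS and 49.6% of the 1555 called higher without it.

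Mrpl50, Mrpl33 and Mrpl48 were among the 33 genes. After LPS, Mrpl50 stood at 36.2, 45.9 and 22.5 CPM in CD18fl/fl and at 90.8, 106 and 59.1 CPM in CD18CD11c cKO libraries, with 1.26 ± 0.34 and an adjusted p of 0.38 without and 0.0066 with the block. Mrpl33 stood at 48.2, 47.3 and 40.1 CPM against 109, 131 and 80.9 CPM (adjusted p of 0.0089 with the block), and Mrpl48 at 67.8, 77.8 and 49.6 CPM against 159, 172 and 117 CPM (0.0071). The groups did not overlap in any of the 3. Mrpl57, a mitochondria-specific protein of the large subunit, stood at 40.7, 43.5 and 40.1 CPM against 95.8, 106 and 83.5 CPM, with 1.17 ± 0.21 and an adjusted p of 0.0078 with the block. In unstimulated cells its groups did not overlap either, at 45.1, 31.2 and 73.1 against 95.6, 87.0 and 114 CPM, and the third library was the highest of each group. Mrpl41, a mitochondria-specific large-subunit protein, and Mrps33, a mitochondria-specific small-subunit protein, also separated the genotypes after LPS. Mrpl41 stood at 39.8, 51.5 and 32.0 CPM against 89.3, 102 and 98.7 CPM, with an adjusted p of 0.011 with the block. Mrps33 stood at 57.6, 63.2 and 57.4 CPM against 119, 109 and 106 CPM, with 0.016.

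Markers of dividing cells moved with the genotype in unstimulated cells. The summed level of 8 such genes lay between 48.9 and 123 CPM in CD18fl/fl and between 90.1 and 314 CPM in CD18CD11c cKO libraries. All 8 had a positive log2 difference (median 1.33), and 3 were called higher with the block, against 12.1% of all genes. In LPS-treated cells the sums lay between 34.2 and 57.7 CPM and between 33.1 and 65.2 CPM, with a median log2 difference of −0.07. The median of the mitoribosomal genes in LPS-treated cells was 0.57. In unstimulated cells, the summed level of 8 markers of neutrophils and their precursors was 1119, 95.4 and 8.79 CPM in CD18fl/fl and 176, 149 and 9.51 CPM in CD18CD11c cKO libraries, with the highest value in the first CD18fl/fl library and with Elane, Mpo and Ly6g at or near 0 in most libraries. The sum of 4 markers of mast cells and basophils was higher in CD18CD11c cKO in each same-numbered pair, at 8.36, 4.7 and 116 against 3.52, 3.76 and 35 CPM without and 1.78, 1.75 and 74.4 against 0.867, 0.372 and 15.6 CPM with LPS. The sum of 8 macrophage markers overlapped between the genotypes in unstimulated cells (1347 to 1963 against 1670 to 1761 CPM), but after LPS it was 1454, 1556 and 1904 CPM in CD18fl/fl and 1211, 1125 and 1161 CPM in CD18CD11c cKO libraries, without overlap. The part of cell division and of these cell types in the differences of the members was not tested. In a bulk sample, fewer cells of a type and less RNA per cell cannot be told apart.

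The genotype difference moved with the length of the exons over all genes, so the members were also compared with genes of like exon length. This length is that of all annotated exons of a gene and can exceed that of its mRNA. In Mrpl17, 13 exons of 7605 bases fill most of the locus (chromosome 7, 105452413 to 105460306). Whether such annotation had a part in the values by length class was not tested. In unstimulated cells the correlation of the log2 difference with exon length across all genes tested was −0.38 (Spearman), while across the 78 members it was −0.17. Genes are not independent replicates, and these values are descriptions. In the fit with the block, the median over all genes was 0.70 for exons under 1000 bases, 0.38 from 1000 to under 2000 bases, 0.03 from 2000 to under 3000 bases and −0.27 for 3000 bases or more. The members' medians declined less. Their medians were 0.85 (17 genes, 15 called higher), 0.64 (33 genes, 18 called), 0.65 (10 genes, 6 called) and 0.63 (18 genes, 11 called). In the shortest class the medians of the members and of all genes were 0.85 and 0.70, and 15 of 17 members were called higher, against 46.8% of all genes of that class. In the longest class 11 of 18 members were called higher, against 5.38% of all genes of that class.

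A fit with the block and with an offset for exon length in each library was used for the same comparison. It called 25 members higher and 1 lower, against 8.21% and 4.46% of all genes with an exon length, and the median of the members was 0.33, against −0.03. All 25 were among the 50 called without the offset. By length class, 2 of 17, 7 of 33, 5 of 10 and 11 of 18 members were called higher, from the shortest to the longest. All 18 members with exons of 3000 bases or more had a positive difference, with a median of 0.77, against −0.05 over all genes of that class. The offset follows all genes, whose correlation with exon length went from −0.38 to 0.003. Among the members, which had less of this trend, the correlation went from −0.17 to 0.53. The rise of the members' values with length in this fit thus came with the offset. Mrpl48 (5469 bases) had a log2 difference of 1.54 in this fit (adjusted p of 0.0043), and Mrps17 one of 1.31 (0.0043). In contrast, Mrps21 (561 bases) went to 0.30 (0.24), Mrpl14 (645 bases) to 0.36 (0.14) and Mrpl54 (604 bases) to 0.02 (0.94). In LPS-treated cells this fit called 21 members higher and 1 lower, against 5.39% and 2.01% of all genes, again with the longest class at the highest median (0.77, 9 of 18 called, against −0.05 over all genes of that class). There the members' correlation with exon length went from −0.07 without the offset to 0.46 with it.

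**Figure D3:**
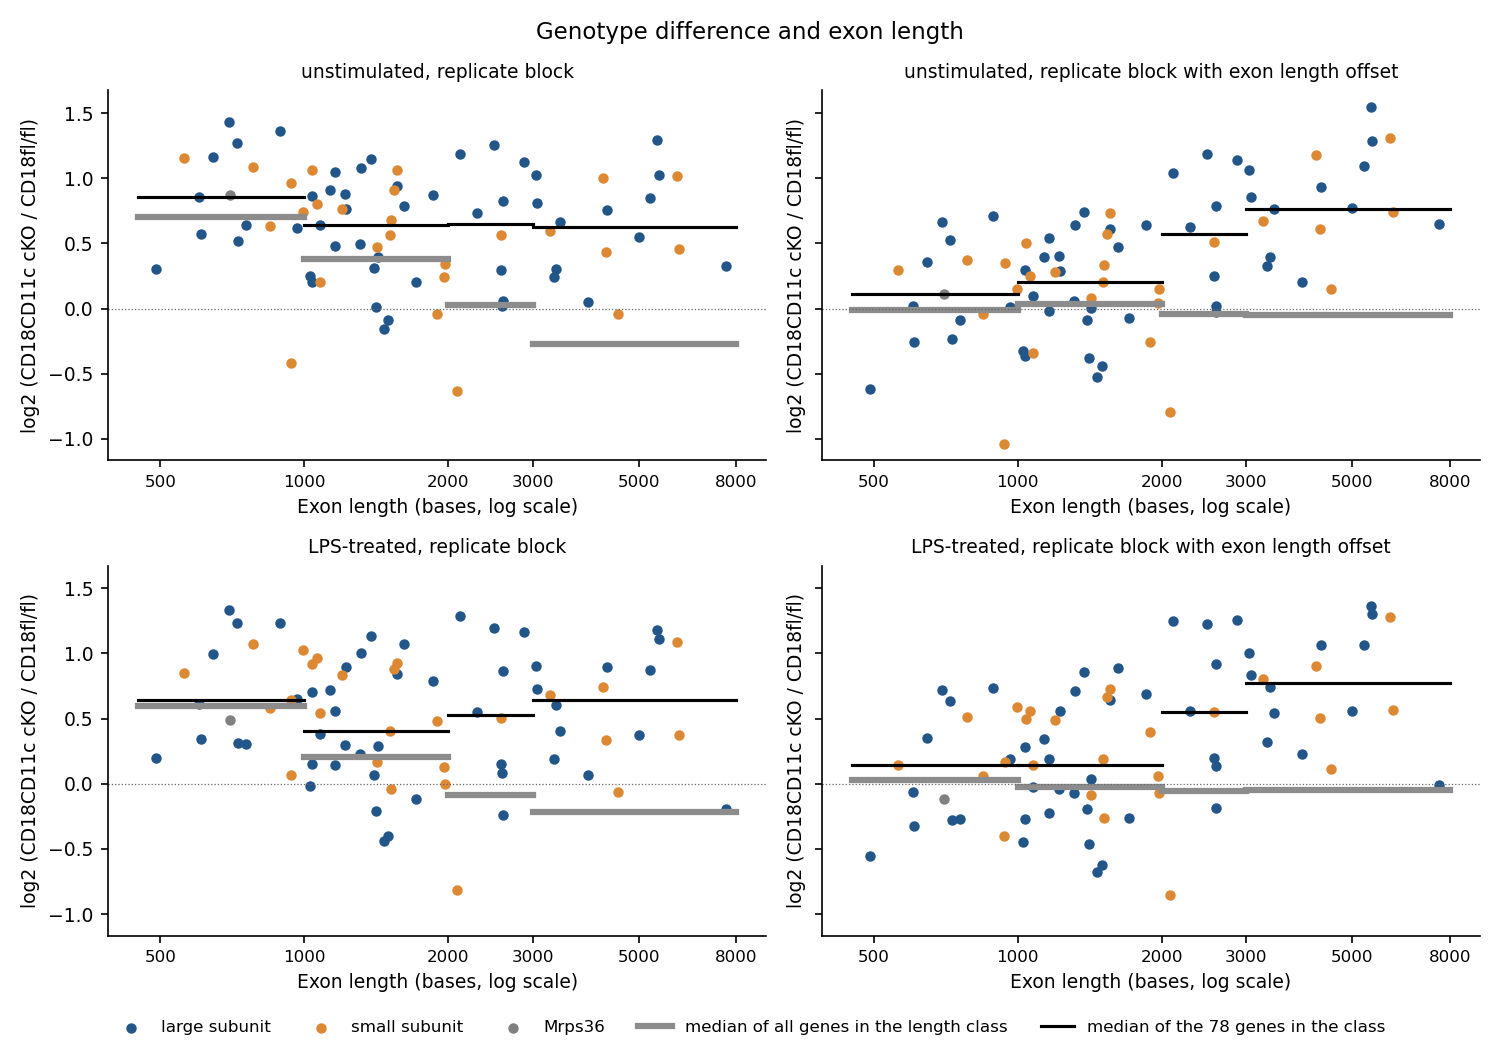
Log2 difference between CD18CD11c cKO and CD18fl/fl for each of the 78 genes (points) against exon length in bases on a log scale, in unstimulated (top) and LPS-treated cells (bottom), from the fit with the replicate block (left) and with the block and an exon length offset (right). Lines give the medians in 4 length classes, and the members' median in the class of 3000 bases or more lies above 0.6 in all 4 panels, where that of all genes lies below 0.

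A few members stood against this direction. Mrps15, a small-subunit protein with a bacterial homolog (chromosome 4, 125940718 to 125949325, plus strand), stood at 27.8, 28.6 and 31.5 CPM in unstimulated CD18fl/fl and at 18.2, 22.6 and 22.9 CPM in unstimulated CD18CD11c cKO libraries. The groups did not overlap, and the log2 difference of −0.41 ± 0.15 had an adjusted p of 0.092 with the block. With the block and the length offset Mrps15 was the 1 member called lower (−1.04, adjusted p of 0.0080). Mrps2, a protein of the small subunit that binds near the exit of the messenger RNA, was also lower without overlap, at 13.0, 13.4 and 11.4 CPM against 7.01, 6.97 and 9.66 CPM, with an adjusted p of 0.090 with the block. After LPS, Mrps2 stood at 4.91, 6.69 and 8.56 CPM against 3.08, 3.23 and 5.44 CPM (log2 difference −0.82 ± 0.28, adjusted p of 0.11). Mrpl37 did not overlap after LPS, at 14.6, 11.4 and 11.5 against 8.51, 10.6 and 9.65 CPM (0.28), and Mrpl4, at 28.8, 34.1 and 21.7 against 22.1, 23.2 and 17.5 CPM, overlapped and was called lower only in the fit with the block and the length offset (−0.68, 0.044).

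The response to LPS was mixed among the members. In CD18fl/fl cells 51 of the 78 had a positive log2 change, with a median of 0.20, against −0.02 over the 12744 genes tested, and with scaling by library size alone both medians were lower, at −0.14 and −0.32. The edgeR fit without the block called 1 higher and 0 lower, against 2.06% and 1.83% of all genes. With the block it called 2 higher (Mrpl53 and Mrps6) and 1 lower (Mrps5), against 6.33% and 6.43%. In CD18CD11c cKO cells 44 had a positive change, with a median of 0.07, against −0.01 over the 12687 genes tested, or −0.15 and −0.23 with library size scaling. Without the block 1 was called higher and 0 lower, against 2.23% and 1.76% of all genes. With the block 8 were called higher (Mrpl1, Mrpl13, Mrpl14, Mrpl27, Mrpl53, Mrps18a, Mrps18c and Mrps6) and 4 lower (Mrps2, Mrps5, Mrps26 and Mrpl37), against 10.2% and 9.93%. DESeq2 called 6 members higher and 0 lower in CD18fl/fl cells, against 5.12% and 4.36% of all genes, and 5 and 0 in CD18CD11c cKO cells, against 4.04% and 3.94%. The exon length offset described for the genotypes gave 2 and 0 in CD18fl/fl cells without the block, against 2.71% and 2.15%, and 4 and 1 with it, against 7.46% and 6.5%. In CD18CD11c cKO cells it gave 1 and 0 without the block, against 2.7% and 1.79%, and 9 and 2 with it, against 12.7% and 9.56%. In these edgeR fits, which kept all replicates, the members' shares were thus near or below those of all genes. Fits that leave out a replicate are given below.

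The gene called without the block was Mrpl53 in both genotypes, a mitochondria-specific protein of the large subunit (ENSMUSG00000030037, chromosome 6, 83086021 to 83086920, plus strand). It stood at 21.1, 17.1 and 33.7 CPM in unstimulated and at 85.8, 116 and 56.9 CPM in LPS-treated CD18fl/fl libraries, and at 51.3, 47.3 and 88.2 and 244, 260.4 and 149.7 CPM in CD18CD11c cKO libraries. In each genotype every LPS library was above every unstimulated one. The log2 change was 1.85 ± 0.37 in CD18fl/fl (adjusted p of 0.046) and 1.75 ± 0.34 in CD18CD11c cKO cells (0.042). Leaving out replicate 1 or 2 of either group ended the call in each genotype, with adjusted p-values between 0.15 and 0.20. With library size scaling they were 0.060 and 0.061.

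Mrpl14, the most abundant member, lies at the face of the large subunit that meets the small one, where the assembly factor Malsu1 binds. It stood at 105, 85.5 and 93.1 CPM in unstimulated and at 305, 389 and 130.4 CPM in LPS-treated CD18fl/fl libraries, and at 226, 209 and 177 and 623, 632 and 329 CPM in CD18CD11c cKO libraries. The groups did not overlap, with log2 changes of 1.41 ± 0.36 (adjusted p of 0.052) and 1.27 ± 0.20 (0.0068) with the block. Mrps6, a small-subunit protein, stood at 27.2, 19.7 and 17.2 against 94.6, 90.8 and 25 CPM in CD18fl/fl and at 43.6, 36.3 and 19.1 against 167, 104 and 43.6 CPM in CD18CD11c cKO libraries. Replicate 3 was the lowest library in each of the 4 groups. With the block Mrps6 rose by 1.53 ± 0.36 (0.044) and 1.5 ± 0.20 (0.0045), and 71.5% of its reads were unique. Mrpl1, which forms the mobile stalk near the exit site of the tRNA, stood at 32.1, 23.3 and 30.7 against 116, 119 and 41.3 CPM in CD18CD11c cKO libraries (1.5 ± 0.35, adjusted p of 0.026). In CD18fl/fl libraries Mrpl1 stood at 17.8, 15.0 and 20.2 against 61.1, 78.6 and 17.3 CPM, where the third LPS library lay within the unstimulated range. Mrpl27, a large-subunit protein with a bacterial homolog that lies at the peptidyl transferase centre, stood at 31.5, 26.6 and 38.1 against 67.1, 92.5 and 55.9 CPM in CD18fl/fl and at 53.3, 44.1 and 45.8 against 109, 98.6 and 64.0 CPM in CD18CD11c cKO libraries. Its groups did not overlap, with changes of 1.15 ± 0.29 (0.052) and 0.85 ± 0.19 (0.024) with the block. The groups did not overlap for 6 genes that were higher and 7 that were lower after LPS in CD18fl/fl cells, against 13.6% and 15.9% of all genes, and for 9 and 5 genes in CD18CD11c cKO cells, against 14.8% and 13.4%.

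Mrps5, a small-subunit protein at the entrance of the messenger RNA (chromosome 2, 127429142 to 127448749, plus strand), was the gene called lower in both genotypes with the block. It stood at 18.5, 17.8 and 21.2 CPM in unstimulated and at 9.83, 8.70 and 12.6 CPM in LPS-treated CD18fl/fl libraries, and at 16.5, 17.0 and 20.3 and 9.08, 9.43 and 11.7 CPM in CD18CD11c cKO libraries. The groups did not overlap, and the log2 changes were −0.89 ± 0.22 (adjusted p of 0.049) and −0.88 ± 0.20 (0.024). Without the block the adjusted p-values were 0.099 and 0.11. In contrast to most members, the group means of Mrps5 were close in both genotypes, with a log2 difference of −0.04 ± 0.15 without and −0.06 ± 0.20 with LPS.

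**Figure D4:**
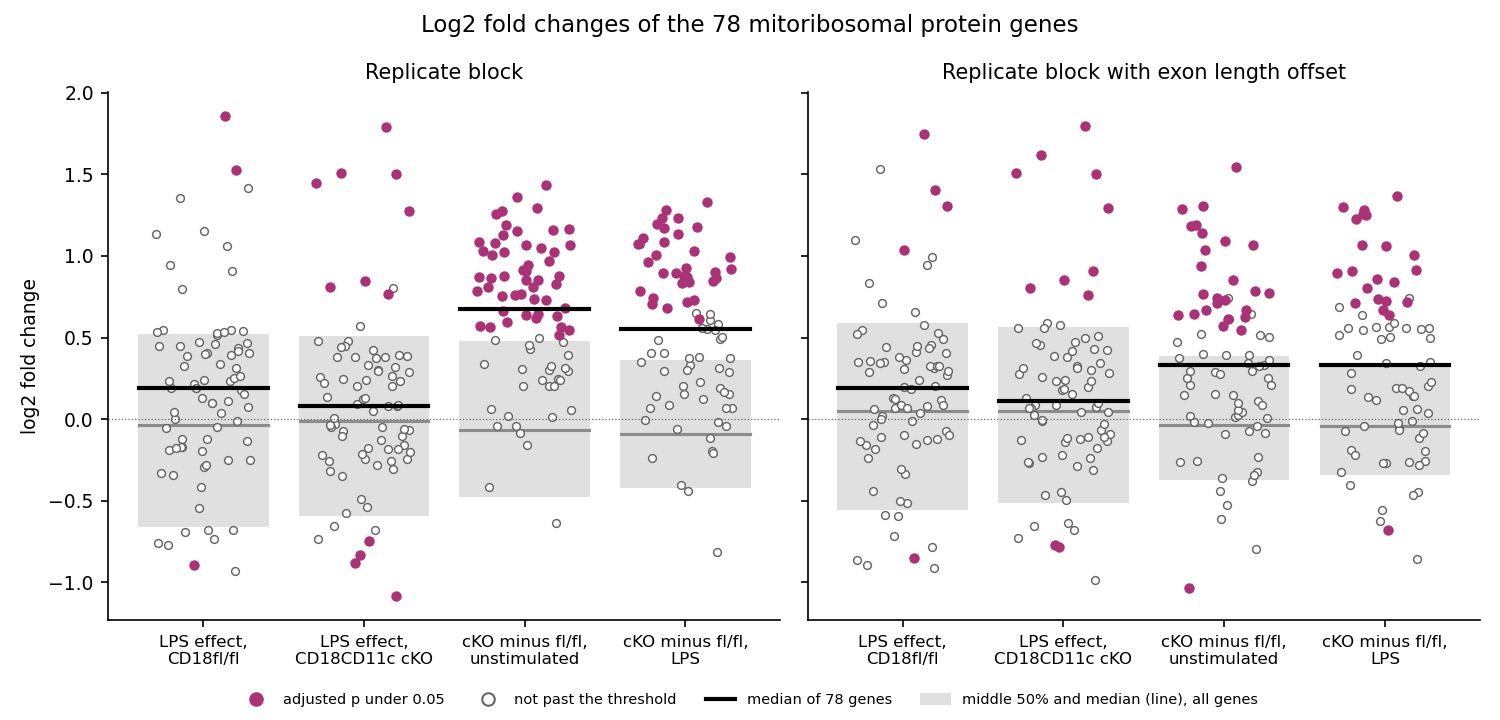
Log2 fold changes of the 78 genes in the 4 comparisons from the fits with the replicate block (left) and with the block and an exon length offset (right). Filled points passed an adjusted p of 0.05, black lines give the median of the 78 genes, and grey boxes with a grey line give the middle 50% and the median of all genes tested. With the block the genotype comparisons have medians of 0.67 and 0.55, and the LPS comparisons lie near 0 with points on both sides.

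The size of the LPS response depended on the third pair of libraries. Between same-numbered CD18fl/fl libraries the median log2 change of the members was 0.28 in replicate 1, 0.55 in replicate 2 and −0.26 in replicate 3, with 54, 64 and 13 of the 78 genes higher after LPS. In CD18CD11c cKO libraries it was 0.12, 0.36 and −0.16, with 50, 60 and 26 genes higher. With replicate 3 left out of both groups, edgeR called 37 members higher and 7 lower in CD18fl/fl cells, against 23.2% and 24.3% of all genes, and 9 higher and 0 lower in CD18CD11c cKO cells, against 7.93% and 7.99%. In contrast, the genotype difference had the same direction in each pair, with medians of 0.76, 0.73 and 0.46 before LPS. After LPS they were 0.59, 0.55 and 0.52. With replicate 3 left out of both groups, edgeR called 36 members higher and 0 lower in unstimulated cells, against 7.91% and 2.67% of all genes. In LPS-treated cells it called 18 and 0, against 3.24% and 0.977%.

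**Figure D5:**
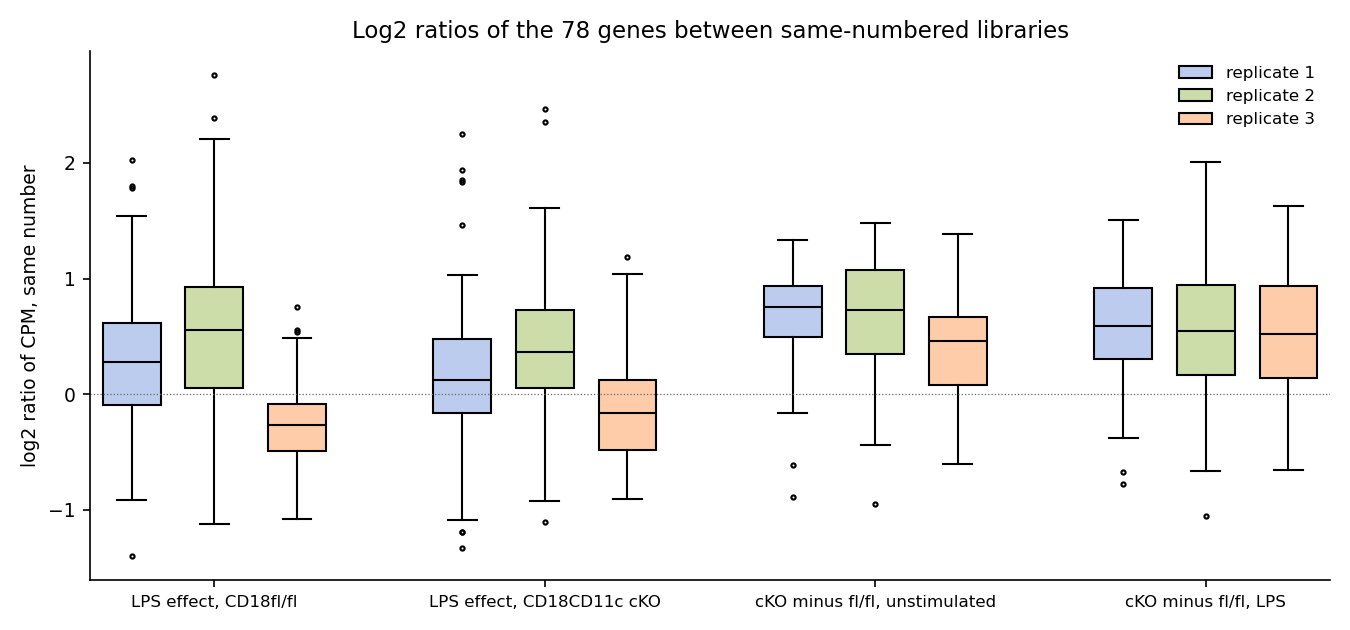
Log2 ratio of CPM between libraries of the same replicate number for the 78 genes, as boxes of the middle 50% with the median, whiskers to the last point within 1.5 times the box height and circles beyond, in the 4 comparisons. The medians of the genotype comparisons are positive in all 3 pairs, and those of the LPS comparisons are negative in the pair of replicate 3.

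To test whether the response to LPS differed between the genotypes, the interaction was fitted over all 12 libraries. For the 78 genes 0 passed an adjusted p of 0.05 in edgeR, as did 0.0% of the 13752 genes tested. None of the 78 had an unadjusted p under 0.05 either, against 0.349% higher and 0.356% lower over all genes, and DESeq2 called 0 of the 78. The smallest p-values were those of Mrps31 and Mrps15, with interactions of −0.64 ± 0.37 and 0.51 ± 0.36 on the log2 scale. The median interaction was −0.03, or 0.025 with library size scaling. With the third LPS library of CD18fl/fl left out it was −0.30.

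Mitoribosomal genes often lie head to head with another gene. In 23 of the 78 (29.5%) the start of a protein-coding gene on the other strand lay within 1000 bases upstream, or overlapped by at most 200 bases, against 12.3% of the 12219 protein-coding genes tested. Such neighbours were Fau, which encodes a cytosolic ribosomal protein, for Mrpl49 and Sars2, the mitochondrial seryl-tRNA synthetase, for Mrps12. In unstimulated cells with the block, Mrpl54, a large-subunit protein, was called higher in CD18CD11c cKO (0.85, adjusted p of 0.0098) and its neighbour Apba3, whose start lies 26 bases away, was called lower (−0.91, 0.030). Another pair was Mrpl44, a large-subunit protein related to ribonuclease III, and Wdfy1, which has a role in Toll-like receptor signalling. Their starts overlap by 125 bases. Wdfy1 stood at 38.8, 19.1 and 24.7 CPM in unstimulated CD18fl/fl and at 4.66, 4.47 and 5.64 CPM in unstimulated CD18CD11c cKO libraries, and at 66.1, 34.7 and 23.2 against 8.02, 6.56 and 4.47 CPM after LPS. With the block Wdfy1 was lower by a log2 difference of −2.37 (adjusted p of 0.0030) and −2.64 (0.0064), while Mrpl44 had differences of 0.40 ± 0.15 (0.11) and 0.29 ± 0.14 (0.24). Wdfy1 and Apba3 were named here after their values were seen.

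In the fits given here, without a length offset, the other parts of the mitochondrial translation apparatus had smaller medians of the genotype difference than the members. The exon lengths of these parts were not compared with those of the members, and a part of length in this contrast was not tested. Of 30 assembly factors of the mitoribosome, 6 were higher and 1 lower in unstimulated CD18CD11c cKO cells with the block (median 0.19), of 17 factors of translation and mRNA handling 2 were higher and 0 lower (0.22), and of 20 mitochondrial aminoacyl-tRNA synthetases 2 were higher and 2 lower (0.10). The members had 50 of 78 called and a median of 0.67 in the same fit, against −0.07 over all genes, of which 12.1% were called higher and 8.16% lower, and the counts of the 3 groups are not far from those shares. With library size scaling, which lowered the median of all genes to −0.44, the medians of these 3 groups were −0.20, −0.15 and −0.27, and that of the members was 0.28. Of the 5 mitoribosomal proteins without an Mrp name, 2 were higher, Chchd1 and Ptcd3. Chchd1, a small-subunit protein, stood at 48.8, 46.8 and 72.8 CPM against 136, 122 and 191 CPM, a log2 difference of 1.47 ± 0.13 with an adjusted p of 0.0030, and Dap3 at 31.9, 27.9 and 48.9 against 38.9, 27.4 and 49.9 CPM (0.47). Among the assembly factors, Malsu1, which keeps the subunits apart during assembly, differed by 0.96 ± 0.26 (0.038) and Tfb1m, which methylates the small ribosomal RNA, by 1.16 ± 0.25 (0.018). Slirp, which binds mitochondrial mRNAs, differed by 1.10 ± 0.14 (0.0039), and its partner Lrpprc by 0.09 ± 0.18 (0.75). Lrpprc fell after LPS with the block, with log2 changes of −1.83 ± 0.31 in CD18fl/fl (0.019) and −1.41 ± 0.23 in CD18CD11c cKO cells (0.0088).

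The transcripts that the mitoribosome translates had a negative median difference. The 13 protein-coding genes of mitochondrial DNA had a median genotype difference of −0.40 in unstimulated cells with the block, with 0 called higher and 5 lower, against 8.16% of all genes called lower. With the block and the length offset the median was −1.03, with 0 higher and 11 lower, against 4.46%. That offset took the median of all genes with exons under 1000 bases from 0.70 to −0.01, so it lowers the values of short genes. The part of exon length in these calls was not tested. Without LPS, the 13 genes summed to 15637, 23744 and 13218 CPM in CD18fl/fl and 16241, 22803 and 9166 CPM in CD18CD11c cKO libraries. The sum was thus higher in CD18CD11c cKO in replicate 1 and lower in replicates 2 and 3, with the widest gap in replicate 3. In mt-Nd6, a subunit of complex I, the values were 99.7, 185 and 97.9 CPM against 74.9, 137 and 47.1 CPM, with −0.58 ± 0.16 and an adjusted p of 0.043. After LPS the 13 genes had medians of −0.71 in CD18fl/fl and −0.68 in CD18CD11c cKO cells without the block, with none called by edgeR or DESeq2 and none at an unadjusted p under 0.05 in edgeR. With replicate 3 left out of both groups 11 and 10 of them were called lower, against 24.3% and 7.99% of all genes. Their summed level after LPS was 11154, 14590 and 17722 CPM in CD18fl/fl and 10704, 13455 and 12788 CPM in CD18CD11c cKO libraries. In both genotypes the sum fell after LPS in replicates 1 and 2 and rose in replicate 3. The calls without replicate 3 thus leave out the pair in which the sum rose. The ribosomal RNAs mt-Rnr1 and mt-Rnr2, around which the members assemble, differed the other way between the genotypes. In unstimulated cells with the block they were higher in CD18CD11c cKO, by 0.72 ± 0.18 (0.028) and 0.76 ± 0.16 (0.018). After LPS both rose in CD18fl/fl cells, by 2.18 ± 0.48 (0.037) and 1.59 ± 0.32 (0.030), and in CD18CD11c cKO cells, by 1.67 ± 0.26 (0.0072) and 1.39 ± 0.22 (0.0075). The libraries were selected for poly(A), so counts of ribosomal RNA are those of the molecules that this selection kept. Of the 12 tested genes for regulators of mitochondrial transcription and biogenesis, 1 was higher and 1 lower with the block, against 12.1% and 8.16% of all genes. Tefm, the elongation factor of the mitochondrial RNA polymerase, stood at 7.27, 7.47 and 12.4 CPM against 16.6, 20.0 and 20.4 CPM, with 1.16 ± 0.20 and an adjusted p of 0.0087. Of the genes for the factors whose letters were searched in the promoters, Nrf1, Gabpa, Yy1 and Myc had log2 differences of 0.31, −0.60, −0.15 and −0.24 (adjusted p-values of 0.32, 0.0495, 0.47 and 0.55) in unstimulated cells with the block, so that Gabpa was the regulator called lower. Ppargc1a was at 0 reads in 7 of the 12 libraries.

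The proteins of the cytosolic ribosome were described in the same way. Of 82 such genes 81 were tested. All 81 had a positive genotype difference in unstimulated cells. With the block 61 were called higher and 0 lower, at a median of 0.78, against 12.1% and 8.16% of all genes. In LPS-treated cells the median was 0.70 and 55 were called higher, against 6.98% of all genes. With the length offset 21 were called higher in unstimulated cells, at a median of 0.27, against 25 of the 78 members at 0.33. The same fit called 8.21% of all genes higher. The LPS response of the cytosolic genes had medians of −0.21 in CD18fl/fl and −0.25 in CD18CD11c cKO cells, against 0.20 and 0.07 for the members. Cytosolic ribosomal protein genes have many near-identical pseudogenes, so that their counts are less certain than those of the members. No test of a difference between the groups of genes was made.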

How the data were processed

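RNA-seq libraries (poly(A) selection, 59-base single-end reads, 15 PCR cycles, no molecular identifiers) were made from 12 samples. The authors trimmed, mapped and counted the reads in CLC Genomics Workbench with default settings, and deposited raw counts per gene (total, unique, exon and intron reads) with exon lengths. The study's methods name GRCm39 and the submitters' processing notes name GRCm38, and the coordinates in the tables match GRCm39. The annotation release is not given in the sources used here, nor is the rule that splits reads matching several genes.

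Here the total gene reads of all genes were tested with the quasi-likelihood test of edgeR 4.0.16 (R 4.3.3) with TMM scaling, a filter by expression (minimum count of 10) and Benjamini-Hochberg adjustment over all genes tested at a threshold of 0.05. The main design has no block, since the study's methods give no design formula. Alternatives were the replicate number as a block, an exon length offset (lowess smoothing with a span of 0.3, genes with an exon length above 0), library size scaling, DESeq2 1.42.0 (the study's tool), other filters, unique reads, all 12 libraries in 1 fit and each library left out. CPM and RPKM were computed from the counts with TMM library sizes. SEs were derived from each log2 change and its F statistic. The code of the fits was run on simulated counts with a fixed dispersion and with larger changes than those of most members. That run does not measure how the fits behave at the spread and effect sizes of these data. Floors of 3 reads cover counting error only.

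The labels do not say what a replicate number marks. Deviations from the group means correlated between libraries of the same number in every pair (0.262 to 0.745 over the 4 comparisons), and the means for different numbers lay between −0.248 and −0.186. Deviations within a group cancel out, so the negative means largely follow from the positive same-numbered values. They are therefore no separate support for a pairing. Replicates 1 and 2 also correlated with each other, at up to 0.364. In the LPS comparison of CD18fl/fl their correlations of 0.331 and 0.286 exceeded that of the libraries numbered 2 (0.262), and in the other 3 comparisons every same-numbered value exceeded those for different numbers. The numbers were taken to pair the samples, which the data show least clearly between replicates 1 and 2.

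The members and lists were chosen with earlier results of these data known. Members described singly were the 5 with the smallest p in each direction of each comparison, those against the median direction at an unadjusted p under 0.05, the extremes of level and exon length, and those with known additional roles. Mrpl44 and its promoter were added after values were seen. Promoters were read from RefSeq (GRCm38.p6), and no promoter coordinate was converted between builds.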

Additional observations from a re-analysis of the deposited data

How the results depend on the processing

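The numbers of members called depended on the model more than the medians did. The counts given are members higher and lower, and the cause was not tested where none is named. In CD18fl/fl cells the LPS response (1 higher, 0 lower) had 0 higher with library size scaling and with unique reads (Mrpl53 has none), 6 with DESeq2, 2 and 1 with the replicate block, 2 higher with the exon length offset, 4 and 1 with both, 4 and 1 with all 12 libraries in 1 fit, and 37 and 7 with replicate 3 left out of both groups. Leaving out 1 library gave 0 to 18 higher and 0 to 6 lower, with 18 and 6 without LPS replicate 3. Its median of 0.20 was −0.14 with library size scaling and 0.44 without replicate 3 of both groups. In CD18CD11c cKO cells (1 and 0) there were 0 higher with library size scaling and with unique reads, 3 with no filter, 2 with a minimum count of 50, 5 with DESeq2, 8 and 4 with the block, 9 and 2 with block and offset, 0 to 7 higher with 1 library left out (7 without LPS replicate 3), 9 higher without replicate 3 of both groups, and 2 lower with all 12 libraries. The genotype difference of unstimulated cells (0 and 0) had 22 higher with DESeq2, 50 with the block, 25 and 1 with block and offset, and 36 higher without replicate 3 of both groups, and its median of 0.68 was 0.28 with library size scaling and 0.33 with the offset, with or without the block. That of LPS-treated cells (0 and 0) had 5 higher with DESeq2, 33 with the block, 21 and 1 with block and offset, 1 higher with all 12 libraries and 18 higher without replicate 3 of both groups, and its median of 0.57 was 0.32 with library size scaling and with the offset, or 0.33 with block and offset. The median interaction of −0.03 ranged from −0.30 (without CD18fl/fl LPS replicate 3) to 0.078 (without CD18CD11c cKO LPS replicate 3).

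Other fits were chosen after seeing the data. They are given in the order LPS in CD18fl/fl, LPS in CD18CD11c cKO, genotype in unstimulated and genotype in LPS-treated cells, as members higher and lower, with the shares of all genes in parentheses. With the block, library size scaling gave 1 and 5 (3.74% and 8.98%, median −0.13), 5 and 8 (6.97% and 14.7%), 30 and 4 (5.44% and 30.1%, median 0.28) and 26 and 2 (4.74% and 16.5%). DESeq2 with the block gave 9 and 1 (8.44% and 8.1%), 9 and 5 (9.03% and 8.57%), 50 and 0 (9.47% and 6.69%) and 39 and 0 (6.57% and 3.24%). All 12 libraries with the block gave 8 and 7 (12.1% and 12.3%), 7 and 5 (11.8% and 10.1%), 23 and 0 (4.93% and 3.18%) and 20 and 0 (3.66% and 0.865%).

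Library size scaling moved the median of all genes to −0.32, −0.23, −0.44 and −0.37 in the LPS comparisons (CD18fl/fl, CD18CD11c cKO) and the genotype comparisons (unstimulated, LPS). Relative to all genes, the members' medians were 0.19, 0.07, 0.72 and 0.68, against 0.21, 0.09, 0.73 and 0.68 with TMM. The direction turned for Mrps5 in the unstimulated genotype comparison (0.15 with the offset and with block and offset, −0.12 to 0.022 with 1 library left out), for Mrpl17 in the LPS genotype comparison (−0.54 to 0.071 with 1 library left out) and for Mrps18b in the interaction (−0.025 to 0.79 likewise), none of them called. Of the values of single genes under an alternative, 844 kept direction and side of the threshold, 177 newly passed it and 10 no longer did.

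With 3 libraries per group, differences in the range of the SEs given could not be told from 0.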
